A study of Mus musculus with 4 samples.

Results

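In the Tomato-plus libraries of an Involucrin-traced mouse epidermis, single cells with high *Krt10* were divided into those that kept *Krt14* and those that lacked it. A cell was a well with at least 2000 unique molecular identifiers (UMIs) on genes. It was *Krt10*-high with at least 3 *Krt10* UMIs per 1000 gene UMIs, and it kept *Krt14* with at least 1 *Krt14* UMI per 1000. By this rule 65 of 161 cells, from 384 wells on 4 microfluidic chips, were *Krt10*-high. Of these, 60 lay in the Tomato-plus (Tom+) libraries, where 24 kept *Krt14* and 36 lacked it, and 5 lay in the Tomato-minus (Tom−) libraries.

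The animals were female mice with the alleles Ivl-CreERT2/R26-tdTomato, taken at postnatal day 57. All of them had received tamoxifen, injected into the abdomen 2 days earlier. The labels give the dose as 10 µg per g of body weight, while the study's methods state a higher dose, and which was given is not settled here. The Involucrin promoter drives the tamoxifen-dependent Cre in this line, so tdTomato marks cells, and daughters of cells, in which that promoter was active around the injection. Live cells of the dorsal interfollicular epidermis were sorted as CD49f+ (integrin α6, held by cells on the basement membrane), LY6A+ and CD34-negative, and then as Tom+ or Tom−. There were 2 chips per population, called libraries 1 and 2 here. The sorted cells came from 2 mice, so the 4 chips did not each have an animal of their own. Which animal each chip held is not stated outright, so the spread between the 2 libraries of a population may be technical.

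Keratins form the intermediate filaments of epithelial cells from pairs of a type I and a type II chain. In the epidermis, basal cells use *Krt14* with *Krt5*, and differentiating cells switch to *Krt10* with *Krt1*. The study reports that *Krt10* expression starts in cells of the basal layer, before they leave the basement membrane. Basal cells are held to that membrane by hemidesmosomes, in which integrin α6 and collagen XVII (*Col17a1*) are core parts. Suprabasin (*Sbsn*), dermokine (*Dmkn*) and *Krtdap* are secreted products of differentiating keratinocytes, and their genes are neighbours. A cell with both *Krt10* and *Krt14* mRNA thus carries transcripts of both programmes.

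The sequences upstream of *Krt10*, which chose the cells, and of the 3 differentiation genes named first in the comparison of the cell states are shown here, each as the 250 bases before the RefSeq transcription start in GRCm38.p6. Capitals mark matches to a TATA box (TATAAA on either strand) and to the AP-1 motif (TGANTCA, which reads alike on both strands). No matches of the motifs overlapped. These letters occur in 12.4% and 6.75% of all 32851 windows of this length. *Krtdap* held both, *Krt10* held the first, *Sbsn* held the second and *Krt77* held neither.
*Krt10*, chr11:99389365-99389614, minus strand: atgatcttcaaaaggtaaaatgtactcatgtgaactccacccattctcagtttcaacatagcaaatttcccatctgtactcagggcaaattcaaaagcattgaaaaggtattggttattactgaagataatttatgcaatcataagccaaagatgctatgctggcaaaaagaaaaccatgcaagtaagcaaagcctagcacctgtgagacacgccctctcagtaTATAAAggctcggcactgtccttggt
*Krtdap*, chr7:30787655-30787904, plus strand: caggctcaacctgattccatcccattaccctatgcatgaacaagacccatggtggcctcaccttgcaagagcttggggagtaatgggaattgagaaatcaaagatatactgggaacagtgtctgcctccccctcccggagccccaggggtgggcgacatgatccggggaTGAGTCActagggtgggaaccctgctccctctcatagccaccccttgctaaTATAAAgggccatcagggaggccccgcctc
*Sbsn*, chr7:30751221-30751470, plus strand: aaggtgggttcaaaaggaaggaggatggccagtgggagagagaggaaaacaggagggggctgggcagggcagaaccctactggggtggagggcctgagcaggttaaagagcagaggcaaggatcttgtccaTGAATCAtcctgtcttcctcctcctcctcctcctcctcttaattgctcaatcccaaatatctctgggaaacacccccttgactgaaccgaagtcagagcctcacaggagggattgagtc
*Krt77*, chr15:101869706-101869955, minus strand: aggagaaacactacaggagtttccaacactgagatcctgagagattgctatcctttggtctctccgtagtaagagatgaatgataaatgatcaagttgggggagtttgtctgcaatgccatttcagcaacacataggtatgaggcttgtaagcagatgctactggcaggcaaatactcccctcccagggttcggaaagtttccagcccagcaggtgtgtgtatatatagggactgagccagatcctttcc

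Tom+ library 1 held 25 *Krt10*-high cells, of which 7 kept *Krt14* and 18 lacked it, beside 10 *Krt10*-low cells. Tom+ library 2 held 35, of which 17 kept and 18 lacked it, beside 23 *Krt10*-low cells. The share that lacked *Krt14* was 72.0% (95% exact binomial interval 50.6 to 87.9%) in library 1 and 51.4% (34.0 to 68.6%) in library 2, and these intervals overlap and cover counting error only. Among the 33 *Krt10*-low Tom+ cells, 1 fell under the *Krt14* threshold.

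**Figure D1:**
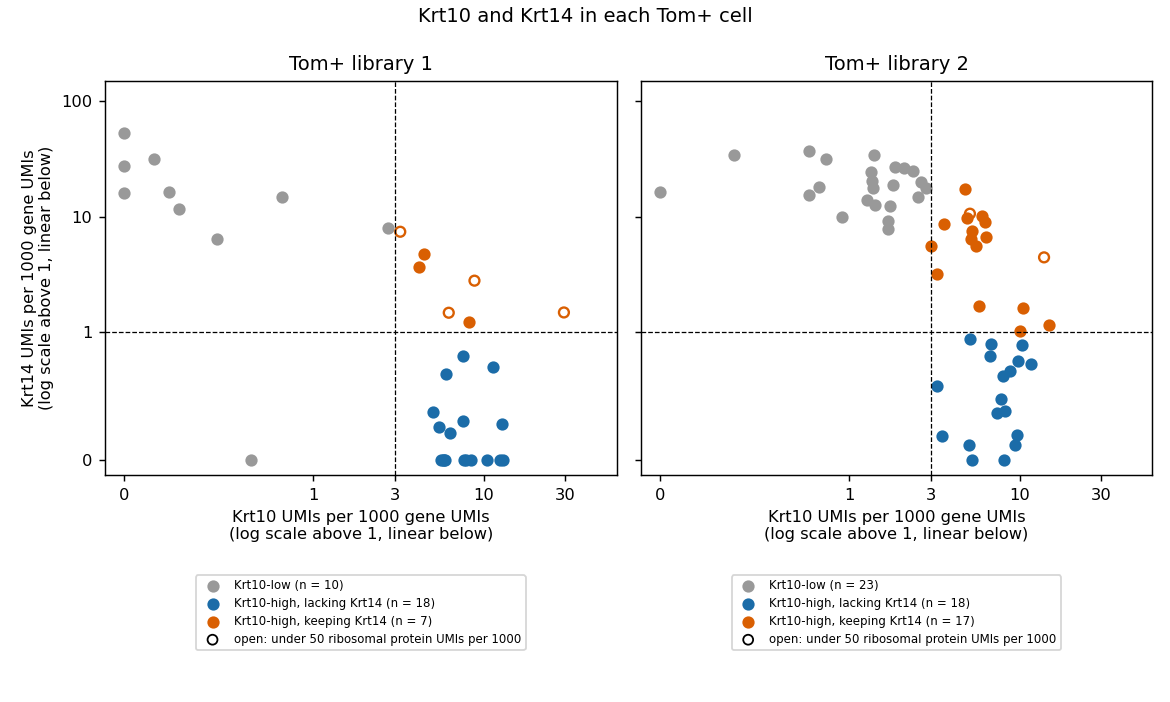
Each point is a Tom+ cell, with its *Krt10* (x) and *Krt14* (y) UMIs per 1000 gene UMIs on axes that are logarithmic above 1 and linear below, and dashed lines at the thresholds of 3 and 1. Keeping cells lie at the upper right and spread down to the line, while 10 lacking cells of library 1 and 2 of library 2 sit at 0 *Krt14*.

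The cells were chosen by their *Krt10* and *Krt14* levels, which are given as a description. The median *Krt14* level of the keeping cells was 2.77 UMIs per 1000 gene UMIs in library 1 and 6.35 in library 2, against 15.4 and 17.9 in *Krt10*-low cells. Most keeping cells therefore held less *Krt14* than *Krt10*-low cells, and the highest keeping cell reached 7.37 in library 1 and 17.3 in library 2. Just inside and outside the threshold, the lowest keeping cell had 1.23 and 1.01 and the highest lacking cell 0.809 and 0.942. No *Krt14* UMI was found in 10 of 18 lacking cells of library 1 and in 2 of 18 of library 2. Median *Krt10* was 6.21 and 5.56 in keeping and 7.52 and 7.90 in lacking cells. The lowest *Krt10*-high cells stood at 3.23 and 3.04 and the highest *Krt10*-low cells at 2.73 and 2.80.

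Depth sets how many *Krt14* UMIs a cell can show. Keeping cells had a median of 3403 gene UMIs in library 1 and 4715 in library 2, and lacking cells had 4078 and 5392. The lacking cells had the higher median depth in both libraries. With each cell thinned to 2000 UMIs, the median number of genes seen was 1042 and 999 in keeping cells and 1025 and 1026.5 in lacking cells. No doublet caller was run. The ratio of gene to spike-in (ERCC) UMIs, a measure of RNA content, had medians of 43.6 and 44.6 in keeping and 48.7 and 59.9 in lacking cells, with ranges that overlapped in both libraries.

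RNA composition set 6 keeping cells apart from the other *Krt10*-high Tom+ cells. In 6 of the 60 *Krt10*-high Tom+ cells, under 50 of every 1000 gene UMIs came from ribosomal protein genes (13.8 to 33.8), while the other 54 cells had 53.8 to 219. All 6 kept *Krt14*, and they made up 4 of the 7 keeping cells of library 1 and 2 of the 17 of library 2. None of the 36 lacking cells lay there, which allows a share of up to 8.33%. No *Krt10*-low cell lay there of the 10 and 23 in Tom+ libraries 1 and 2 or the 18 in Tom− library 1. In Tom− library 2, 7 of 45 did, so low values also occurred outside keeping cells. In the 6 keeping cells, median *Malat1*, a nuclear non-coding RNA, was 47.5 UMIs per 1000 against 20.8 in the other 54 *Krt10*-high Tom+ cells. Their median depth was 2739.5 against 4786.5 gene UMIs. Results are given below without these cells where a call changed. Leaving them out was chosen after seeing the data. It removes keeping cells only, with 3 left in library 1 and 15 in library 2.

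The comparison of keeping with lacking cells asks which other genes differ between *Krt10*-high cells that reach the *Krt14* threshold and those that fall under it. Cells are not replicates, so UMIs were summed per library and state and compared within libraries with edgeR's quasi-likelihood test. At an adjusted p under 0.05, 15 of the 1852 tested genes (0.81%) were called, 7 of them higher (0.378%) and 8 lower (0.432%) in keeping cells. The lower genes included *Sbsn*, *Krtdap*, the suprabasal keratin *Krt77* and the protease inhibitor *Spink5*. The higher genes included *S100a6*, the water and glycerol channel *Aqp3*, the G1 cyclin *Ccnd1* and the basement membrane proteoglycan *Agrn*. For 13 of the 15, both libraries showed the same sign. The number of calls depended on the model. Without the library term no gene passed (smallest adjusted p 0.0677, 83 genes at an unadjusted p under 0.05, against 111 with it), and DESeq2 called 1 gene and limma-voom 2. The gene called under most settings was *Sbsn*, which was past the threshold under 16 of the 20 alternatives tried, while each of the other 14 genes was past it under 2 to 8 of them.

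*Sbsn* (chromosome 7, 30751471 to 30756134) was lower in keeping cells in both libraries. The summed level was 7.30 UMIs per 10000 gene UMIs in keeping and 40.4 in lacking cells of library 1, and 20.4 and 47.6 in library 2. Both keeping sums lay below both lacking sums and above the *Krt10*-low sums of 2.86 and 4.13. The log2 fold change (keeping minus lacking) was −1.68 ± 0.28 (SE of the fit, 2 libraries), with an edgeR adjusted p of 0.000212. The SEs given here and below come from the fit and do not measure the spread of the 2 libraries. The library log2 ratios of *Sbsn* were −2.44 and −1.22. In library 1, 123 of the 330 *Sbsn* UMIs of lacking cells came from 1 cell. By cells, the median was 0.782 and 1.48 UMIs per 1000 in keeping and 1.83 and 3.75 in lacking cells, and the ranges overlapped in both libraries.

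*Krtdap* (chromosome 7, 30787896 to 30791097) was also lower in keeping cells. Its summed level was 26.6 per 10000 in keeping and 81.4 in lacking cells of library 1, and 69.7 and 104 in library 2. All 4 sums lay well above the *Krt10*-low sums of 2.86 and 4.72. The log2 fold change was −1.05 ± 0.26 (SE of the fit, 2 libraries), with an edgeR adjusted p of 0.0264 and library log2 ratios of −1.62 and −0.58. Of the 62 UMIs of keeping cells in library 1, 32 came from 1 cell, and the median keeping cell there had 0.245 UMIs per 1000, near the *Krt10*-low median of 0.252. In library 2 the median keeping cell had 6.496 and the median lacking cell 8.53. The neighbouring *Dmkn* lies between these genes, which together span 39.6 kb. It had 42.5 and 60.3 per 10000 in keeping and lacking cells of library 1 and 44.9 and 72.6 in library 2, a log2 difference of −0.61 that did not pass (edgeR adjusted p = 0.581). All 3 genes of the secreted cluster were thus below 0 in both libraries, as were 519 of all 1852 genes tested, and 2 of the 3 were called lower, against 8 (0.432%) of all genes. The list's median was −1.05 against −0.02 for all genes tested. *Krtdap* was called under 6 of the 20 alternatives and not under the other 14.

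*Krt77* (chromosome 15, 101858731 to 101869705), a type II keratin of suprabasal cells, had 0.429 UMIs per 10000 in keeping and 5.88 in lacking cells of library 1, and 2.53 and 7.17 in library 2. The keeping sums lay on either side of the *Krt10*-low sums of 1.15 and 1.38. The keeping level of library 1 was a single value of 1 UMI, in a cell with few ribosomal UMIs. Its log2 fold change was −1.89 ± 0.47 (SE of the fit, 2 libraries), with an edgeR adjusted p of 0.0264 and library log2 ratios of −3.15 and −1.42. *Krt1*, the partner of *Krt10*, had 58.4 per 10000 in keeping and 39.6 in lacking cells of library 1 and 29.3 and 30.4 in library 2, with a log2 difference of 0.25 (edgeR adjusted p = 0.996). Of the 136 *Krt1* UMIs of keeping cells in library 1, 87 lay in 1 cell with few ribosomal UMIs, and without the 6 such cells the difference was −0.37. *Krt78*, another suprabasal type II keratin, had a log2 difference of −1.50 (edgeR adjusted p = 0.764). Of the 3 tested suprabasal keratins other than *Krt10*, 1 was called, and it was lower, against 8 (0.432%) of all genes.

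**Figure D2:**
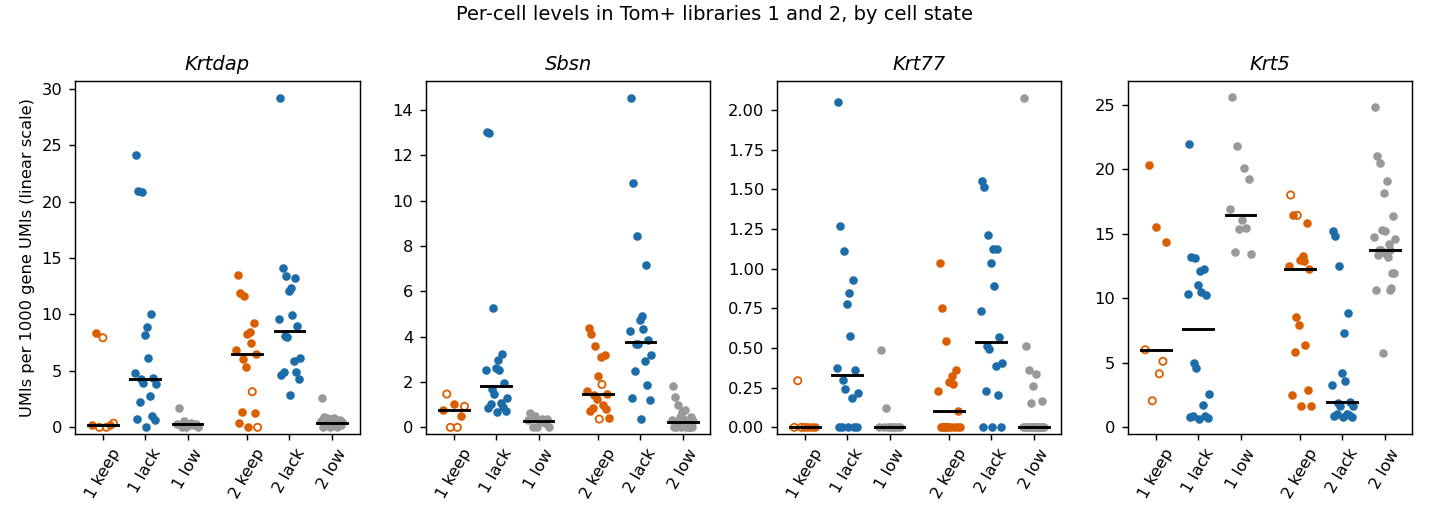
Each point is a Tom+ cell in libraries 1 and 2, by state (keep, lack, *Krt10*-low), with UMIs per 1000 gene UMIs on a linear axis, bars at the median, and open points for cells with under 50 ribosomal protein UMIs per 1000. *Krtdap*, *Sbsn* and *Krt77* medians are higher in lacking than in keeping cells, and *Krt5* in lacking cells runs from 0.636 to 21.9 in library 1.

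The remaining lower genes had fewer UMIs than *Sbsn* and *Krtdap*. *Spink5*, an inhibitor of the proteases that shed the outer epidermis, had 1.29 and 2.09 UMIs per 10000 in keeping and 4.04 and 7.53 in lacking cells of libraries 1 and 2 (log2 fold change −1.82, edgeR adjusted p = 0.0421). *Alox12e*, an epidermal 12-lipoxygenase, had no UMI in keeping cells of library 1 against 7 in lacking cells, and 14 against 83 in library 2 (−2.35, edgeR adjusted p = 0.0264). *Gm94* had 0.429 and 4.74 per 10000 in keeping and 11.4 and 12 in lacking cells (−1.84, edgeR adjusted p = 0.0216). *Fam25c* had 9.88 and 16.1 in keeping and 27.6 and 28.9 in lacking cells (−1.06, edgeR adjusted p = 0.0484), and it did not pass without the cells with few ribosomal UMIs (−0.93, edgeR adjusted p = 0.0752). For all 4 genes both keeping sums were below the lacking sum of the same library. They were chosen for the same sign in both libraries, so this was set by the choice. *Alox12e* in lacking cells of library 2 drew 32 of its 83 UMIs from 1 cell, and *Spink5* 34 of 85.

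Among the higher genes, *S100a6*, a small calcium-binding protein, had 3 UMIs in keeping and none in lacking cells of library 1, and 38 against 7 in library 2. These are 1.29 and 4.19 per 10000 in keeping cells, well under the *Krt10*-low sums of 14.5 and 18.4. The log2 fold change was 3.07 ± 0.60 (SE of the fit, 2 libraries), with an edgeR adjusted p of 0.00224 and library log2 ratios of 2.51 and 2.33. Of the 38 UMIs, 17 came from 1 cell, the keeping cell with the most gene UMIs. *Ifitm3*, an interferon-induced membrane protein, had 2.15 and 6.94 per 10000 in keeping and 0.980 and 1.86 in lacking cells (1.75, edgeR adjusted p = 0.0264). Its *Krt10*-low sums were 12.8 and 16.4, above all 4 *Krt10*-high sums. *Aqp3* had 2 UMIs against 1 in library 1 and 34 against 5 in library 2 (2.95, edgeR adjusted p = 0.0264), so its change was measured almost wholly in library 2.

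*Agrn*, *Ccnd1* and *R3hdm4* rested on very few UMIs. *Agrn* had 4 UMIs against 1 in library 1 and 16 against 1 in library 2, a pooled ratio of 17.1 with a 95% counting interval of 4.14 to 151. *Ccnd1* had 7 against 3 and 13 against none, a pooled ratio of 11.4 (3.37 to 59.8). *R3hdm4* had 10 against 3 and 16 against 3, a pooled ratio of 7.39 (2.98 to 21.96). The intervals pool both libraries and treat UMIs as independent, so they cover neither the spread between libraries nor that between cells. The edgeR adjusted p-values of these genes were 0.0199, 0.0404 and 0.0498. In library 1 the 4 cells with few ribosomal UMIs held all 4 *Agrn*, 6 of 7 *Ccnd1* and all 10 *R3hdm4* UMIs of the keeping cells. Without such cells *Agrn* (adjusted p = 0.103), *Ccnd1* (0.313) and *Fam25c* (0.0752) did not pass in edgeR and *R3hdm4* was not tested, while 11 of the 15 genes, among them *Sbsn*, *Krtdap*, *Krt77*, *S100a6*, *Aqp3* and *Ifitm3*, remained called.

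**Figure D3:**
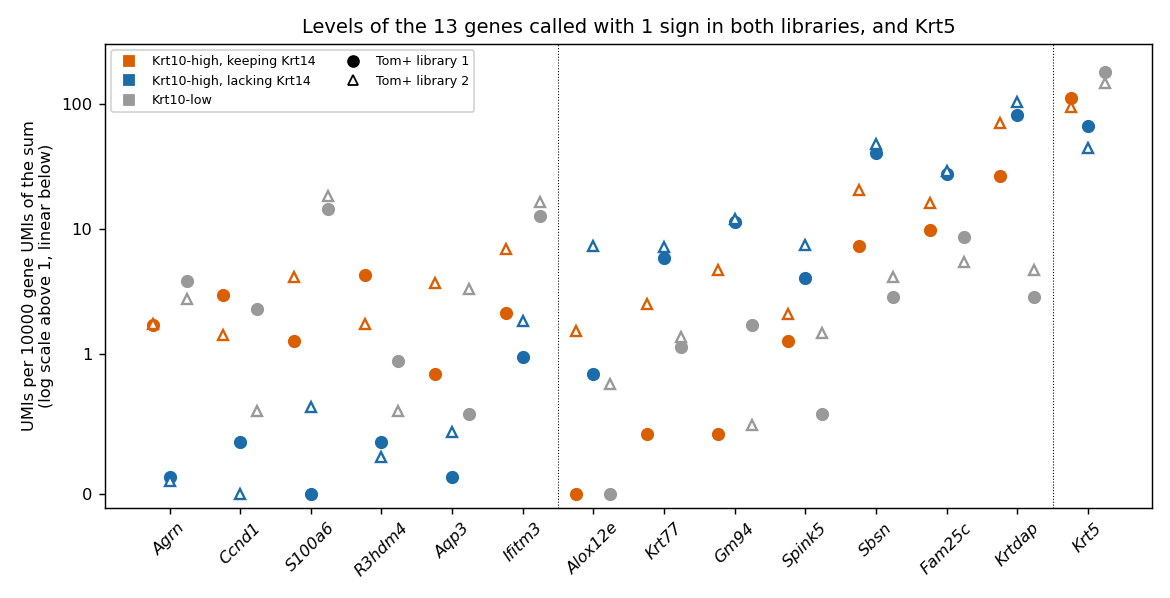
UMIs per 10000 gene UMIs of each summed library and state (logarithmic above 1, linear below) for the 13 genes called with the same sign in both libraries and for *Krt5*, with circles for library 1 and triangles for library 2. The 6 higher genes are under 2 in all lacking sums. For the 7 lower genes keeping cells lie below lacking cells in each library, as set by the choice of genes by sign.

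The 2 other calls were not alike in the libraries. *Fcgbp*, an Fc-binding protein, had no UMI in keeping and 3 in lacking cells of library 1, but 50 against 12 in library 2 (2.14, edgeR adjusted p = 0.0407). *Krt79*, a keratin of the hair follicle infundibulum, was not seen in library 1. In library 2, 88 of the 89 UMIs of lacking cells came from 1 cell and 11 of the 12 UMIs of keeping cells from another. The infundibulum gene *Krt17* had a log2 difference of −0.90 (edgeR adjusted p = 0.691), and it was 1.27 when both *Krt79* cells were left out.

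*Krt5*, the partner of *Krt14*, was not called. Its summed level was 110.4 per 10000 in keeping and 66.7 in lacking cells of library 1, and 95.1 and 44.7 in library 2, below the *Krt10*-low sums of 178 and 147. The log2 difference of 0.90 ± 0.24 (SE of the fit, 2 libraries) just missed the threshold (edgeR adjusted p = 0.0529), with library log2 ratios of 0.71 and 1.08. Without the cells with few ribosomal UMIs the difference was 1.02 (edgeR adjusted p = 0.00117), with 3 keeping cells left in library 1 and 15 in library 2. Cells that lacked *Krt14* varied widely in *Krt5*. At least 5 *Krt5* UMIs per 1000 were found in 9 of 18 lacking cells of library 1 and 5 of 18 of library 2, against 5 of 7 and 13 of 17 keeping cells and all 33 *Krt10*-low cells. Lacking cells ranged from 0.636 to 21.9 in library 1 and from 0.776 to 15.2 in library 2, and the lowest *Krt10*-low cell had 13.4 and 5.73. The median cell did not follow the sums in library 1, where it had 6.01 *Krt5* UMIs per 1000 in keeping and 7.60 in lacking cells, while in library 2 it had 12.3 and 1.93. In library 1, the 4 keeping cells with few ribosomal UMIs stood at 41.1 *Krt5* UMIs per 10000 against 167 in the other keeping cells. In library 2, the 2 such cells stood at 173 against 89.7. The basal type I keratin *Krt15* was close in both states, with 103 and 78.3 per 10000 in keeping and 85.0 and 65.5 in lacking cells (0.26, edgeR adjusted p = 0.996).

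Genes of adhesion to the basement membrane were above 0 without passing the test. Of 15 on the list, 10 were tested and none was called, but all 10 had log2 differences above 0, 7 of them in both libraries. Of all 1852 genes tested, 900 were above 0 and 442 were so in both libraries. The list had a median of 0.85 against −0.02 for all genes tested. *Col17a1* had 19.3 and 12.7 UMIs per 10000 in keeping and 10.9 and 7.88 in lacking cells (0.74, edgeR adjusted p = 0.478). *Itga6*, the integrin of the sort, had 5.58 and 4.96 against 2.70 and 2.21 (1.07, edgeR adjusted p = 0.573). The hemidesmosomal plakins *Dst* and *Plec* had 0.27 and 0.66 (edgeR adjusted p = 0.996 for both). In the cells with few ribosomal UMIs, *Itga6* stood at 11.5 and 20.3 per 10000 against 0.780 and 3.89 in the other keeping cells, and without them its difference was 0.23, that of *Dst* −0.16, and 8 of the 10 genes were above 0 (median 0.77). Among 16 tested genes of a list of other basal genes, 2 were called higher, *Aqp3* and *Ccnd1*, against 7 (0.378%) of all genes, and *Ccnd1* did not pass without the cells with few ribosomal UMIs (edgeR adjusted p = 0.313). The list's median was 0.51, and it was −0.19 over library 1 alone and 0.82 over library 2. The members with the most UMIs were *Sfn*, a 14-3-3 protein, at −0.0750, the metallothioneins *Mt1* at 0.41 and *Mt2* at 0.66, and a locus of the chemokine *Ccl27a* at 0.37. None of these passed, with edgeR adjusted p-values of 0.581 for *Mt2* and from 0.977 to 0.996 for the others, and *Trp63*, the transcription factor of stratified epithelia, −0.38 (edgeR adjusted p = 0.996).

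Of 27 early differentiation genes, 20 were tested and none was called, 16 were below 0, 14 of them in both libraries, and the median was −0.48. Of all 1852 genes tested, 952 were below 0 and 519 were so in both libraries. *Calm5*, a calmodulin-like gene of differentiating epidermis, had 10.3 and 25.2 UMIs per 10000 in keeping and 31.2 and 39.4 in lacking cells, and just missed the threshold (−0.998, edgeR adjusted p = 0.0536). *Mt4*, the metallothionein of stratified epithelia, had 9.88 and 11.1 against 14.0 and 23.4 (−0.85, edgeR adjusted p = 0.296). *Lgals7*, a galectin of stratified epithelia, had 33.1 and 62.3 against 72.8 and 69.0 (−0.57, edgeR adjusted p = 0.696), and *Ly6d* had 42.5 and 38.0 against 39.8 and 42.3 (−0.0519, edgeR adjusted p = 0.996). *Ptgs1*, the constitutive cyclooxygenase, was at 3.86 and 2.31 against 3.31 and 2.39 (0.04, edgeR adjusted p = 0.996). Among 14 tested differentiation transcription factors and Notch pathway genes, 7 lay on either side of 0 with a median of −0.01 and no call. Among 14 desmosome and junction genes the median was −0.23, with no call, and 4 were above 0 and 10 below. The members with the most UMIs were *Perp* at −0.36, desmoplakin (*Dsp*) at −0.14 and the desmosomal cadherins *Dsc3* at −0.42 and *Dsg1a* at −0.70, the last being the lowest of the 14 (edgeR adjusted p from 0.581 to 0.996). Late genes were scarce. Of 25 genes of the cornified envelope list, 2 were tested and *Spink5* was called, lower, against 8 (0.432%) of all genes. The other, *Casp14*, had a log2 difference of −0.16 (edgeR adjusted p = 0.996). *Ivl* itself gave 5 UMIs, all in lacking cells of library 1, and *Lor* gave 1 UMI in keeping cells of each library.

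**Figure D4:**
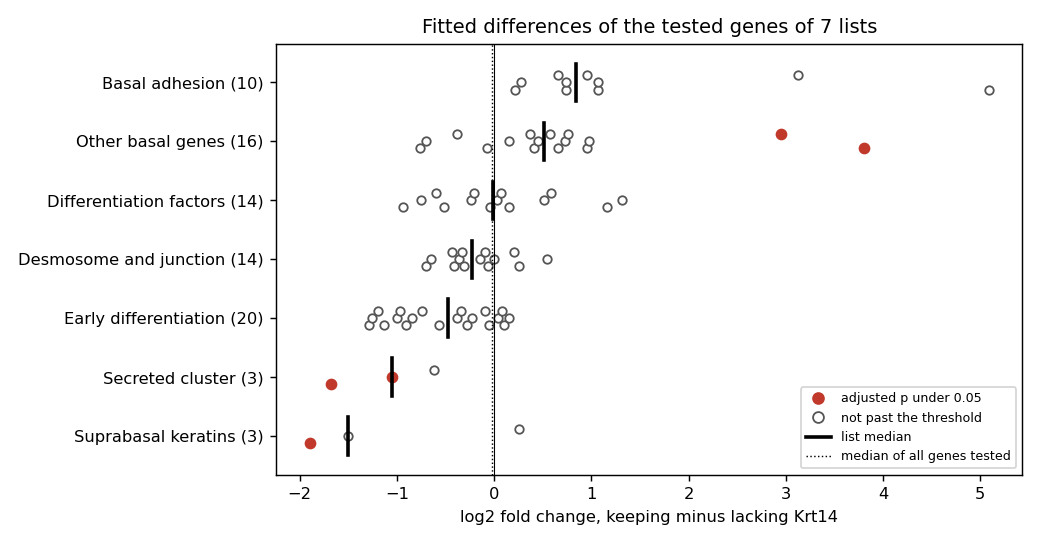
Each point is the fitted log2 difference (keeping minus lacking) of a tested gene of 7 lists, filled where the adjusted p is under 0.05, with a bar at the list median and the number tested in parentheses. The basal adhesion median is 0.85 and the secreted cluster median −1.05, beside −0.02 for all genes tested (dotted).

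Lists of general functions held no call but *S100a6*. None of 6 tested cell cycle genes of 35 was called, and the median was 0.16. The medians were −0.08 for 76 ribosomal protein genes, −0.17 for 70 oxidative phosphorylation genes, −0.02 for 22 immediate early and heat shock genes, 0.05 for 6 genes of MHC class I antigen presentation and −0.50 for 8 lipid synthesis genes, all with no call. Of 10 S100 and annexin genes, *S100a6* was the only call under this model, with a list median of −0.28. Of all genes, 7 (0.378%) were called higher.

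Set against *Krt10*-low Tom+ cells in the same model, 31 genes (1.67%) were called for keeping cells, 1.03% of the genes tested as higher and 0.648% as lower. For lacking cells 122 (6.59%) were called, 3.56% as higher and 3.02% as lower. The keeping sums of libraries 1 and 2 held 23288 and 90788 UMIs and the lacking sums 81619 and 112952. The 2 numbers of calls thus come from unlike depths and do not measure which state is closer to *Krt10*-low cells. Both comparisons share the *Krt10*-low sums, so values are only set side by side. *Krtdap* had a log2 difference of 3.57 in keeping and 4.61 in lacking cells, *Sbsn* 1.96 and 3.64, *Mt4* 2.52 and 3.36 and *Krt1* 2.12 and 1.86, all past the threshold in edgeR. *Krt77* had 0.45 in keeping cells, which did not pass, and 2.34 in lacking cells, which did. *Krt5* had −0.72, not past the threshold, and −1.61, past it. *S100a6* passed in both, with −2.57 and −5.64, as did *Ifitm3* with −1.68 and −3.42.

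Markers of other cell types were counted in the same cells. At least 3 of 8 T-cell markers were found in 2 of 18 lacking cells of library 2 and in no other *Krt10*-high Tom+ cell, and the summed T-cell list stood at 0.602 UMIs per 1000 there, 0.0330 in keeping cells of library 2 and 0 in library 1. Without those 2 cells, 7 genes were called, 5 of them among the 15 (*Agrn*, *Alox12e*, *Krt79*, *S100a6* and *Sbsn*), and *Krtdap* (adjusted p = 0.0802) and *Krt77* (0.0777) did not pass in edgeR with log2 differences of −1.04 and −1.90. At least 3 infundibulum markers were found in 1 of 7 and 6 of 17 keeping cells. Lacking cells reached this in 3 of 18 and 4 of 18. Among *Krt10*-low cells, 2 of 10 and 7 of 23 reached it in the Tom+ libraries, and 6 of 18 and 15 of 45 in Tom−. Reaching it was thus not particular to either *Krt10*-high state. In all *Krt10*-high cells of library 1, 4 infundibulum markers (*Fst*, *Aqp5*, *Krt79* and *Gata6*) were at 0. The summed lists of melanocyte, Merkel cell, fibroblast, endothelial and sebaceous markers were at or below 0.0613 UMIs per 1000 in each library and state. Without every cell with at least 3 markers of another type, *Sbsn* was the only call in edgeR (−2.00, adjusted p = 0.0119), with 90 genes at an unadjusted p under 0.05.

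The reporter was read in both states. A tdTomato UMI was found in 2 of 7 and 10 of 17 keeping cells and in 10 of 18 and 9 of 18 lacking cells of libraries 1 and 2. Cre was found in 2 of 7 and 10 of 17 keeping cells and in 5 of 18 lacking cells of each library. The 95% exact intervals of these shares overlap between states in both libraries. They cover counting error only, and their overlap does not show that the states were alike. A difference was not tested.

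The 5 Tom− cells with high *Krt10* are listed apart. In library 1, 1 kept *Krt14* (5 UMIs) and 1 lacked it, and all 3 in library 2 lacked it, with 0 or 1 UMI. The keeping cell had 22.7 ribosomal protein UMIs per 1000, among the low values seen in Tom+ keeping cells. *Krt15* gave 33 to 100 UMIs in these cells and *Krtdap* 7 to 52. *Krt5* ranged from 2 to 54 UMIs, so *Krt14*-lacking cells with high and with low *Krt5* occurred here too. *Sbsn* gave 0 to 21 UMIs, and 1 of the 5 cells held a tdTomato UMI.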

How the data were processed

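The authors captured sorted cells on Fluidigm C1 chips, made 5-prime tagged libraries and deposited tables of UMI counts for each gene in each well, not normalized. The submitters' processing notes name the builds mm10 and GRCm38, and the aligner and counter are not given in the sources used here. Each table held 24378 gene rows, 1207 of them numbered loci of a symbol. Spike-in and reporter rows were kept apart. No well name or count column was shared between libraries. Of 384 wells, 223 had under 2000 gene UMIs and were left out.

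UMI counts were summed per Tom+ library and state (keeping, lacking, *Krt10*-low), giving 6 sums of 23288 to 112952 UMIs, and fitted with edgeR 4.0.16 (R 4.3.3), with the quasi-likelihood test after filterByExpr and TMM scaling. *Krt10* and *Krt14* were left out of the genes tested, and p-values were adjusted by Benjamini-Hochberg over the rest. Library was a block, since both states came from the same chip. With 2 libraries there were 2 residual degrees of freedom, and the fit borrowed a prior of 65.8 degrees of freedom across genes. The common coefficient of variation beyond counting was 0.222. SEs are those of this fit, which includes the *Krt10*-low sums, and are not the spread of the 2 libraries. The code was first tested on simulated data. DESeq2 1.42.0 and limma 3.58.1 were alternatives.

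Members, lists and tests were chosen with earlier results of these data known. Genes are named if called with the same sign in both libraries (up to 10 a direction), if among the 4 with the most UMIs of a list, or if in a fixed set of 12 keratinocyte genes. Calls with unlike signs are named too. *Ly6a* and *Notch3* of the fixed set had too few UMIs to be tested. For lists of general functions, differentiation factors, S100 and annexin genes and other cell types, the genes with the most UMIs are not named one by one, and counts and medians are given. No set test was run. Upstream sequences are from RefSeq. The table's start for *Krt14* lies within that gene, so its sequence is not shown. Gene positions are from GENCODE vM21.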

Additional observations from a re-analysis of the deposited data

How the results depend on the processing

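With 2 libraries the calls depended on the settings. Against 15 genes (7 higher, 8 lower in keeping cells), fitting without the replicate block gave 0 calls (0 higher, 0 lower), with 83 genes at an unadjusted p under 0.05. DESeq2's Wald test gave 1 call (0 higher, 1 lower), limma-voom 2 (1 and 1), no filter on low counts 2 (1 and 1), and cells thinned to 2000 UMIs 2 (0 and 2). DESeq2's size factors gave 10 calls (4 and 6). A minimum of 1000 UMIs per cell and one of 3000 each gave 1 call (0 and 1), and leaving out the deepest 5% of cells gave 8 (5 and 3). A *Krt14* threshold of 0.5 gave 5 calls (2 and 3), one of 2 gave 9 (4 and 5), and leaving out cells with 1 to 5 *Krt14* UMIs per 1000 gave 2 (2 and 0). A *Krt10* threshold of 5 gave 4 (4 and 0), and one of 10 gave 0 (0 and 0) over 380 tested genes, with 15 at an unadjusted p under 0.05. Without cells with 3 markers of another type there was 1 call (0 and 1), and without cells with 3 T-cell markers 7 (4 and 3). The cause of these changes was not tested. Leaving out the middle *Krt14* range left 1 keeping cell in library 1, with 13.8 ribosomal protein UMIs per 1000, and 11 in library 2. At the *Krt10* threshold of 10 there were 1 and 4 keeping and 5 and 2 lacking cells in libraries 1 and 2. Leaving out the T-cell marker cells, the *Krt79* cells or the cells with few ribosomal UMIs was chosen after seeing the data. *Sbsn* kept its direction throughout, from −2.63 to −0.80, and missed the threshold without the replicate block (adjusted p = 0.131), without the middle *Krt14* range (0.994) and at *Krt10* thresholds of 5 (0.0633) and 10 (0.879) in edgeR. The share of *Krt10*-high cells lacking *Krt14* in library 2 was 25.7% at the *Krt14* threshold of 0.5 and 33.3% at the *Krt10* threshold of 10.

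Of 828 alternative log2 differences over 39 genes, 50 changed sign, and the cause was not tested. At the *Krt10* threshold of 10 these were *Spink5* (0.10), *Fcgbp* (−1.05), *Dst* (−0.0933), *Calm5* (0.0486), *Ly6d* (0.12), *Dsp* (0.0274) and *Dsc3* (0.38), and at 5 *Trp63* (0.12) and *Sfn* (0.0155). Without the middle *Krt14* range, which left 1 keeping cell in library 1, *Krt15* was −1.02, *Krt5* −0.11, *Mt2* −0.0922 and *Krt1* −1.67. There *Ptgs1* was −0.67, *Plec* −0.40, *Mt1* −0.53 and *Ccl27a* −0.42. The *Krt14* threshold of 2 gave *Krt1* −0.76, *Ptgs1* −0.13 and *Mt1* −0.0438, and that of 0.5 gave *Ptgs1* −0.62 and *Sfn* 0.22. Without the cells with few ribosomal UMIs, *Dst* was −0.16, *Krt1* −0.37, *Ptgs1* −0.26, *Sfn* 0.0531 and *Ly6d* 0.0930. Without cells with markers of another type, *Krt17* was 1.82, *Ptgs1* −0.29 and *Sfn* 0.0877, and without the *Krt79* cells *Krt17* was 1.27 and *Ptgs1* −0.0905. In thinned cells *Sfn* was 0.0696 and *Dsp* 0.22. *Ptgs1* was −0.14 with no filter and −0.22 without the deepest cells, where *Ly6d* was 0.000464. At a minimum of 3000 UMIs *Dst* was −0.0308 and *Ly6d* 0.0382, and at 1000 *Sfn* was 0.00504. Leaving out a library leaves no residual degrees of freedom, so it gave values with no test. *Fcgbp* then ranged from −1.24 to 2.12, *Mt2* from −0.13 to 1.24, *Krt1* from −0.0580 to 0.54, *Ptgs1* from −0.0489 to 0.19, *Trp63* from −0.53 to 0.0513, *Sfn* from −0.50 to 0.21, *Mt1* from −0.22 to 0.91, *Ccl27a* from −0.74 to 1.23, *Ly6d* from −0.16 to 0.0765 and *Dsp* from −0.32 to 0.0709. The depth of the smallest sum, 23288 UMIs, limits what can be measured in keeping cells of library 1.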
